A study of Sus scrofa with 14 samples.

Results

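The genes described here are the sulfotransferases SULT1A1, SULT1E1 and SULT2A1 and the efflux transporter ABCG2, in the mucosa of the pig small intestine. Their probes were found through the RefSeq accession that the array files give for each probe. This gave 4 of the 3020 genes that could be named in this way, with 9 of the 43603 probes on the array. SULT1A1 and SULT2A1 had 2 probes each, SULT1E1 had 1 and ABCG2 had 4. Probes without such an accession were not named, so the array may hold more probes of these genes. The reference lists the accession of both SULT1A1 probes as SULT1A3, with SULT1A1 as a synonym, and the name SULT1A1 is kept here. Whether these probes also bind RNA of near-identical SULT1A copies was not tested.

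Gene expression was measured in the SISP model (small intestinal segment perfusion), in which segments of the jejunum keep their blood supply while a fluid is passed through them. Male piglets of 5 weeks were anaesthetised, and adjacent segments of each were perfused for 6 h, after which the mucosa was scraped off and RNA was put on a 1-colour array. In pigs 1, 2 and 4, one segment received in vitro digested yellow onion extract (YOd) and the other the digestion control made with saline (Sd). In pigs 5, 6, 7 and 8, one segment received digested white onion extract (WOd) and the other Sd. In total this gave 14 arrays, 7 of Sd, 3 of YOd and 4 of WOd segments, and pig 3 was not analysed here. The onion digests had been diluted 1:1 in peptone and Sd 1:3 in saline solution, so the segments differed in this too, and onion and diluent cannot be told apart. The scrapings held several cell types, and fewer cells of a type and less RNA per cell cannot be told apart in them. No probe sequences were used, so none are shown.

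Onions are rich in flavonols, mainly glucosides of quercetin, and yellow onions hold more of them than white onions. In enterocytes the sugar is removed, after which the flavonol is conjugated with sulfate, glucuronic acid or a methyl group. Sulfotransferases take the sulfate from the activated donor PAPS. SULT1A1 prefers phenols such as flavonols, SULT1E1 estrogens, and SULT2A1 hydroxysteroids and bile acids. ABCG2, also known as BCRP, is a pump in the apical membrane of enterocytes that returns sulfate conjugates to the lumen.

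Levels are given as the log2 of the processed signal relative to the 75th percentile of the same array. A value of 0 is the 75th percentile, and -4.43 is the floor below which signals were set to that value. Between 50.05 and 70.7% of the spots of an array were well above background. All 8 probes of SULT1A1, SULT2A1 and ABCG2 were above the floor and well above background on 14 of 14 arrays, and none was saturated. Where a gene had several probes, the one with the highest mean signal stood for it, and the others are described after it. A listed gene counts here as on the array only if a RefSeq accession named a probe for it. Accessions named 6686 of the 43603 probes, so other listed genes may have probes that were not named. Of 14 enterocyte markers, 8 were on the array in this sense and each was above the floor on at least 1 array. Their summed level, on the linear scale relative to the 75th percentile, was 692 to 1432 in Sd, 972 to 1409 in YOd and 1001 to 1323 in WOd segments. Its log2 ratio, onion over Sd, was highest in pig 4, at 0.62, where the 8 markers had ratios from 0.55 to 0.67. The 75th percentile used for scaling was 795 in the Sd and 515 in the YOd array of this pig. On each array 545 to 964 probes were saturated, and whether these markers were among them was not tested. The sum is therefore not read as enterocyte content. The Sd segment of pig 6 had the highest levels of the B cell marker MS4A1 and of FABP6, as described with SULT1A1. In both segments of pig 2 MS4A1 was also above the floor. For SULT1A1 the Sd segment of pig 6, at 2.35, lay near the Sd and WOd segments of pig 8, at 2.32 and 2.38. The Sd arrays of pigs 2 and 7 lay on another slide than the onion arrays of these pigs, while the other 5 pigs had both arrays on one slide.

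SULT1A1 levels spread widely between pigs under each digest. In pigs 1, 2 and 4 its level in Sd segments was 1.21, 2.12 and 1.06, and in the YOd segments of these pigs it was 2.07, 2.06 and 1.24. In pigs 5, 6, 7 and 8 it was 2.02, 2.35, 1.06 and 2.32 in Sd and 1.69, 0.38, 0.55 and 2.38 in WOd segments. The mean level was 1.79 ± 0.48 (SD, n = 3) in YOd, 1.73 ± 0.60 (SD, n = 7) in Sd and 1.25 ± 0.95 (SD, n = 4) in WOd segments. The 3 groups overlapped, and neighbours in this order lay within each other's SD. The lowest levels of all 14 arrays were those of the WOd segments of pigs 6 and 7.

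Within pigs, the log2 ratio of YOd over Sd for SULT1A1 was 0.86, -0.06 and 0.18 for pigs 1, 2 and 4. The log2 ratios of WOd over Sd were -0.33, -1.98, -0.50 and 0.07 for pigs 5, 6, 7 and 8. Thus 2 of 3 pigs were higher with YOd and 3 of 4 were lower with WOd, and the change in pig 6 was the largest of the 7. The second SULT1A1 probe followed the first closely (Pearson's r 0.98 over 14 arrays of 7 pigs). On that probe 3 of 3 pigs were higher with YOd and 4 of 4 were lower with WOd, but several of these ratios were near 0, such as 0.04 in pig 2 and -0.04 in pig 8.

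**Figure D1:**
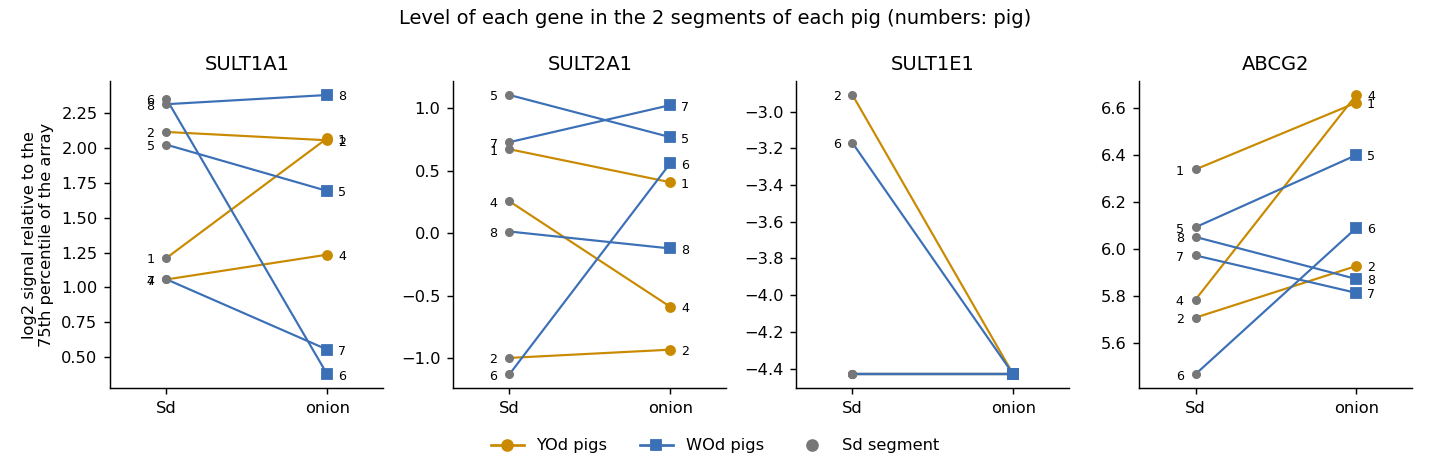
Log2 signal relative to the 75th percentile of the array (y axis) of the probe that stands for each gene, in the Sd and the onion segment of each pig (x axis), with a line for each of the 7 pigs. Lines cross for SULT1A1 and SULT2A1, pig 6 has the steepest line in both, and SULT1E1 is above the floor of -4.43 in the Sd segments of pigs 2 and 6 only.

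In limma with the pig as a block, SULT1A1 had a log2 fold change of 0.33 (SE 0.20, n = 3 pigs) for YOd/Sd, with a Benjamini-Hochberg adjusted p of 0.425. The exact two-sided sign-flip permutation test over these pigs gave p = 0.50, beside a raw limma p of 0.158. With 3 pigs that exact test cannot go below 0.25, and with 4 pigs not below 0.125. For WOd/Sd the log2 fold change was -0.69 (SE 0.32, n = 4 pigs), with an adjusted limma p of 0.998, a raw limma p of 0.0723 and an exact p of 0.25. A gene counts as changed here when its raw limma p was below 0.05 and it moved over 1.5-fold. SULT1A1 did not pass with either onion, since its p was above that limit. With both onions joined, the log2 fold change was -0.25 (SE 0.27, n = 7 pigs), with an adjusted limma p of 0.748 and an exact sign-flip p of 0.594.

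The effect of YOd on SULT1A1 exceeded that of WOd by 1.01 (SE 0.47) on the log2 scale, with a 95% confidence interval from -0.04 to 2.07. The adjusted limma p of this difference was 0.845. An exact two-sided permutation test of it, over all 35 assignments of 3 of the 7 pigs to YOd, gave p = 0.114, beside a raw limma p of 0.0581, where the smallest exact p is 0.0286. The difference between the onions was not larger than the spread between pigs by these tests, although the upper end of its interval is a 4.19-fold difference.

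Single pigs decided the size of the SULT1A1 values. For YOd/Sd this was pig 1, without which the log2 fold change was 0.06, while without pig 2 it was 0.52 and without pig 4 it was 0.40. For the other comparisons it was pig 6. Without it the log2 fold change over the remaining pigs was 0.03, that for WOd/Sd was -0.26, and the difference between the onions was 0.58. Some markers of other cells differed between the segments of this pig, and others did not. The B cell marker MS4A1 was at 0.92 in the Sd segment and at the floor in the WOd segment. FABP6, the bile acid binding protein of the distal small intestine, was at 6.47 in the Sd and 0.43 in the WOd segment. Of 9 lymphocyte markers 7 were on the array, and their summed linear level ranged from 2.13 to 8.73 in Sd, 4.75 to 6.35 in YOd and 2.19 to 8.87 in WOd segments, with a log2 ratio of -1.25 in pig 6. Of these 7, CD3E and CD4 had ratios of -0.03 and 0.0053 in this pig. Of 5 distal small intestine markers 3 were on the array, with a summed level of 15.0 to 117 in Sd, 14.7 to 29.3 in YOd and 14.1 to 28.2 in WOd segments and a log2 ratio of -2.17 in pig 6, where the members other than FABP6, GUCA2B and SLC10A2, had ratios of -0.17 and -0.51. The goblet and enteroendocrine lists, with 2 of 6 and 5 of 8 markers on the array, had ratios of 0.46 and 0.17 in pig 6. MS4A1 was at the floor on 11 of 14 arrays, the others being both arrays of pig 2 and the Sd array of pig 6. The part of these cells and of the position along the intestine in the SULT1A1 values was not tested.

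The genes whose levels over the 14 arrays were most like that of SULT1A1 were MGP, CXCL12 and RCSD1, out of 2400 named genes compared. MGP encodes matrix Gla protein, an inhibitor of calcification in vessel walls and connective tissue, and CXCL12 a chemokine made by stromal cells. Pearson's r with SULT1A1 was 0.94 for MGP, 0.94 for CXCL12 and 0.87 for RCSD1. Without both arrays of pig 6, r over 12 arrays was 0.93, 0.91 and 0.80. In pig 6 MGP fell from 4.49 in the Sd segment to -0.90 in the WOd segment, beside the fall of SULT1A1 from 2.35 to 0.38. In pig 1 MGP was 1.55 in Sd and 2.82 in YOd, beside 1.21 and 2.07 for SULT1A1. These correlations describe arrays that share pigs in pairs. Smooth muscle markers, of which 4 of 7 were on the array, had a summed level of 32.0 to 63.0 in Sd, 33.2 to 80.1 in YOd and 22.0 to 49.3 in WOd segments, and whether the amount of connective tissue in a scraping moved SULT1A1 was not tested.

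**Figure D2:**
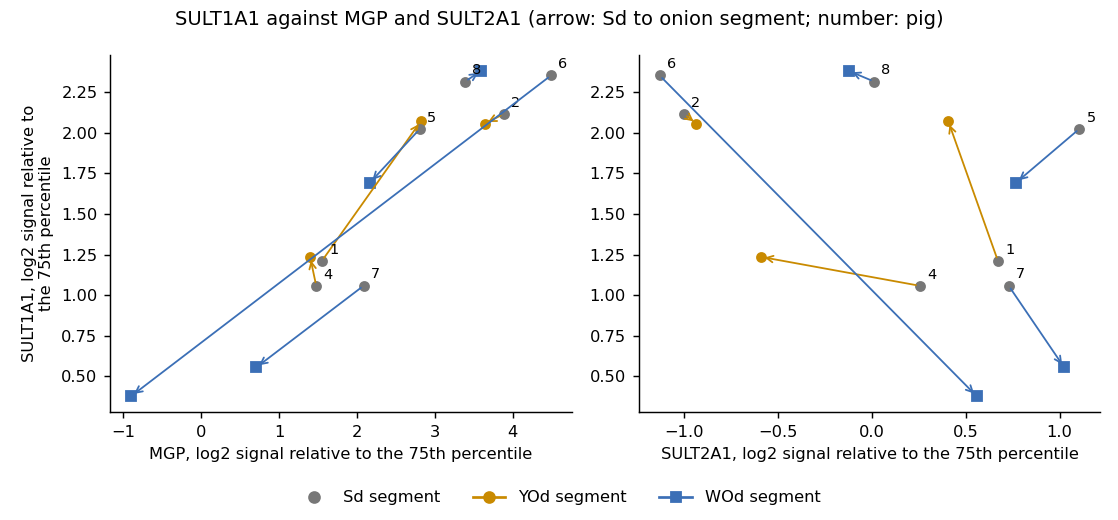
Level of SULT1A1 (y axis) against that of MGP (left) and SULT2A1 (right), both as log2 signal relative to the 75th percentile, for 14 arrays. An arrow runs from the Sd to the onion segment of each pig. Points rise from left to right against MGP (r 0.94), while against SULT2A1 they fall loosely (r -0.51) and the longest arrow in both panels is that of pig 6.

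SULT2A1 varied most of the 3 genes between Sd segments. Its level in Sd was 0.67, -0.999 and 0.25 in pigs 1, 2 and 4, and in the YOd segments it was 0.41, -0.93 and -0.59. In pigs 5, 6, 7 and 8 it was 1.11, -1.13, 0.73 and 0.01 in Sd and 0.77, 0.56, 1.03 and -0.12 in WOd segments. The mean was 0.56 ± 0.49 (SD, n = 4) in WOd, 0.09 ± 0.86 (SD, n = 7) in Sd and -0.37 ± 0.70 (SD, n = 3) in YOd segments. The groups overlapped, and neighbours in this order lay within 1 SD of each other. Both segments of pig 2 and the Sd segment of pig 6 had the lowest levels, and these are the same 3 arrays on which MS4A1 was above the floor. That co-occurrence is between 3 arrays of 2 pigs, and its part in the result was not tested.

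The log2 ratio of YOd over Sd for SULT2A1 was -0.26, 0.07 and -0.84 in pigs 1, 2 and 4. The log2 ratio of WOd over Sd was -0.34, 1.69, 0.30 and -0.14 in pigs 5, 6, 7 and 8. Hence 1 of 3 pigs was higher with YOd and 2 of 4 with WOd. In limma the log2 fold change was -0.35 (SE 0.20, n = 3 pigs) for YOd/Sd, with an adjusted p of 0.402, a raw p of 0.130 and an exact sign-flip p of 0.50. It was 0.38 (SE 0.33, n = 4 pigs) for WOd/Sd, with an adjusted limma p of 0.998, a raw p of 0.290 and an exact p of 0.75. In all 7 pigs together it was 0.07 (SE 0.24), with an adjusted limma p of 0.928 and an exact sign-flip permutation p of 0.875. The YOd effect was lower than that of WOd by a log2 difference of -0.73 (SE 0.47), with an adjusted limma p of 0.845 and an exact permutation p of 0.314. The interval of this difference, from -1.79 to 0.34, does not fix its direction. Without pig 6 the value over the pigs became -0.20 and that for WOd/Sd -0.06. For YOd/Sd it became -0.10 without pig 4 and -0.55 without pig 2.

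The second SULT2A1 probe correlated with the first with r 0.98 over 14 arrays, and its within-pig ratio had the same sign in 6 of 7 pigs. On it 3 of 3 pigs were lower with YOd, with a log2 fold change of -0.57, and the lowest ratio was -1.38 in pig 4. The genes most like SULT2A1 were SOCS4, LCAT and DLST, with r 0.85, 0.81 and 0.80 over 14 arrays, and 0.85, 0.81 and 0.77 over the 12 arrays without pig 6. SOCS4 is a suppressor of cytokine signalling, LCAT esterifies cholesterol in lipoproteins, and DLST is a subunit of the mitochondrial 2-oxoglutarate dehydrogenase.

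SULT1A1 and SULT2A1 moved in opposite directions in 6 of 7 pigs, pig 5 being the exception. With the other choices of probes this count was 4, 5 and 5 of 7 pigs. Over the 14 arrays r between the genes was -0.51, and -0.43 over the 12 arrays without pig 6. SULT1A1 and ABCG2 moved in the same direction in 3 of 7 pigs, as did SULT2A1 and ABCG2. Both counts rest on the first ABCG2 probe, whose direction the other ABCG2 probes shared in 2, 4 and 2 of 7 pigs.

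SULT1E1 was near background on most arrays. Its signal was above the floor on 2 of 14 arrays, the Sd segments of pig 2 at -2.91 and of pig 6 at -3.17. It was well above background on 4 arrays, both segments of pigs 2 and 6. The processed signal was 82.4 in Sd and 17.4 in YOd for pig 2, and 54.4 in Sd and 22.4 in WOd for pig 6. After division by the 75th percentile, but without the floor, Sd was 4.35-fold higher than YOd in pig 2 and 2.52-fold higher than WOd in pig 6. The arrays on which SULT1E1 was well above background include the 3 arrays with MS4A1 above the floor, and the fourth is the WOd array of pig 6. On the other 10 arrays the SULT1E1 signal was between 2.70 and 12.3 and not well above background, so these give no order. SULT1E1 was above the floor on too few arrays to be tested in any of the comparisons.

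ABCG2 was the steadiest of the 3 genes above the floor. Its level in Sd was 6.34, 5.71 and 5.78 in pigs 1, 2 and 4, and in the YOd segments it was 6.62, 5.93 and 6.66. In pigs 5, 6, 7 and 8 it was 6.09, 5.47, 5.97 and 6.05 in Sd and 6.40, 6.09, 5.81 and 5.87 in WOd segments. The mean was 6.40 ± 0.41 (SD, n = 3) in YOd, 6.04 ± 0.27 (SD, n = 4) in WOd and 5.92 ± 0.29 (SD, n = 7) in Sd segments. The groups overlapped, and WOd and Sd lay within 1 SD of each other. The lowest level was that of the Sd segment of pig 6 and the highest that of the YOd segment of pig 4.

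ABCG2 was higher with YOd than with Sd in 3 of 3 pigs, with log2 ratios of 0.28, 0.22 and 0.87 in pigs 1, 2 and 4. With WOd the ratios were 0.31, 0.62, -0.16 and -0.18 in pigs 5, 6, 7 and 8, so that 2 of 4 pigs were higher. In limma the YOd/Sd log2 fold change was 0.46 (SE 0.18, 95% confidence interval 0.03 to 0.89), a fold change of 1.37 with an adjusted p of 0.387. The raw limma p of this value was 0.0389, the exact sign-flip p was 0.25, the smallest that 3 pigs allow, and the change stayed below 1.5-fold. Without pig 4 the value was 0.25 and without pigs 1 and 2 in turn it was 0.55 and 0.58. The raw limma p depended on the processing, and it was 0.0313 with normexp background correction. With quantile normalization it was 0.137, with the mean over the probes 0.352 and with the values deposited by the authors 0.104. Without scaling between arrays it was 0.367. For WOd/Sd the log2 fold change was 0.15 (SE 0.19, n = 4 pigs), with an adjusted limma p of 0.998 and an exact p of 0.625. In the 7 pigs it was 0.28 (SE 0.14), higher in 5 of 7 pigs, with an adjusted limma p of 0.657. The exact sign-flip permutation test over the 7 pigs gave p = 0.109, or 0.328 after adjustment over the 3 genes tested, beside a raw limma p of 0.0681. The YOd and WOd effects differed by 0.31 (SE 0.28, adjusted limma p = 0.857, exact permutation p = 0.286), with a 95% interval from -0.31 to 0.94.

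The other ABCG2 probes did not show the YOd value of the first. Their log2 fold changes for YOd/Sd were 0.16, 0.13 and 0.15 with all probes fitted, and their adjusted limma p-values were 0.767, 0.817 and 0.759. Only 1, 2 and 1 of 3 pigs were higher with YOd on them. Over 14 arrays they correlated with the first probe with r 0.79, 0.33 and 0.67, while the second and the fourth correlated with each other with r 0.95. After scaling, all 4 probes had their highest within-pig ratio in pig 4, at 0.87, 0.89, 0.82 and 0.78. Scaling raised these ratios alike, since the 75th percentile was 795 in the Sd and 515 in the YOd array of this pig. Before scaling, the processed signal of the first probe was 43790 in Sd and 52017 in YOd of pig 4. In pig 6 it was 21648 in Sd and 34517 in WOd, a larger ratio. Thus the direction in pig 4 was shared by the probes, while the size and rank of its ratios depended on the scaling. The direction in pigs 1 and 2 was not shared.

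**Figure D3:**
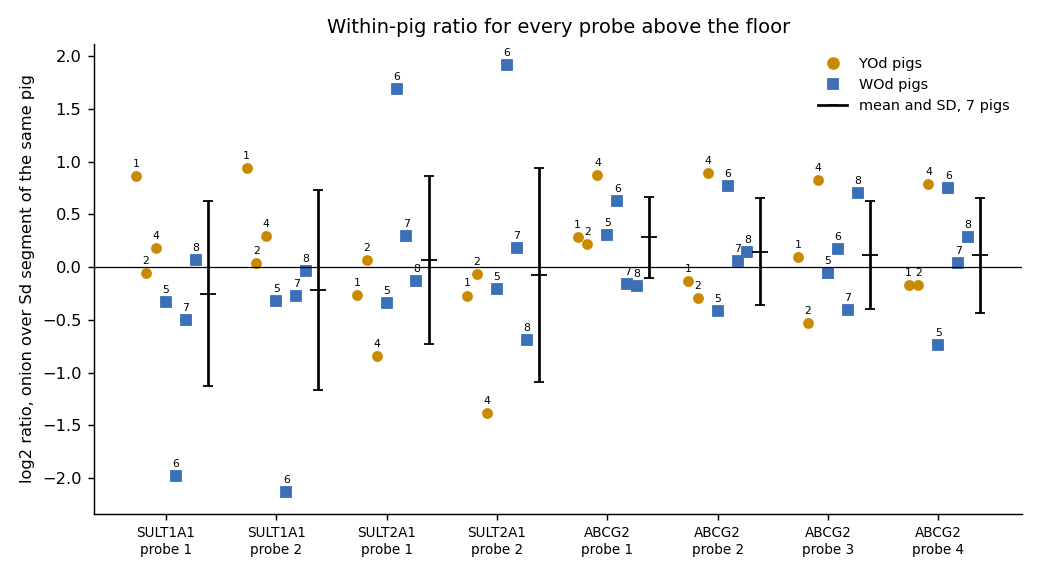
Log2 ratio of the onion over the Sd segment of the same pig (y axis) for the 8 probes of SULT1A1, SULT2A1 and ABCG2 (x axis), with the pig number above each point and the mean and SD over 7 pigs as a black bar. Both SULT1A1 probes have pig 6 at the bottom, both SULT2A1 probes have it at the top, and all 8 black bars span 0.

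The genes most like ABCG2 over the 14 arrays were AHCY, MAGED1 and BLOC1S3, with r 0.91, 0.90 and 0.90. AHCY hydrolyses S-adenosylhomocysteine, the product of methylation reactions. Without pig 6, r over 12 arrays was 0.90, 0.90 and 0.93. MAGED1 was higher with onion in 7 of 7 pigs, with log2 ratios from 0.03 in pig 2 to 1.47 in pig 4.

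Of SULT1A1, SULT2A1 and ABCG2, 0 of 3 passed the thresholds in any comparison. Among all named genes, 114 of 2464 (4.63%) passed for YOd/Sd, 29 of 2467 (1.18%) for WOd/Sd, 30 of 2453 (1.22%) over the 7 pigs and 93 of 2553 (3.64%) for the difference between the effects of YOd and WOd. With these shares, 0 of 3 is not a result about the genes. In the main processing no gene had an adjusted limma p below 0.05 in any of the 4 comparisons. With a block for the slide some genes did, as given in the last paragraph. In the main processing 276 (11.2%), 68 (2.76%), 168 (6.85%) and 110 (4.31%) had a raw limma p below 0.05, ABCG2 in YOd/Sd among them. For YOd/Sd 90 genes were higher and 24 lower, but without scaling between arrays this became 7 and 95. For the difference between the onions the 60 higher and 33 lower became 7 and 96, and in all 7 pigs the 23 higher and 7 lower became 4 and 12. Over all genes the median YOd/Sd log2 fold change was 0.14, and -0.16 without scaling. Without scaling the YOd/Sd values were 0.02 for SULT1A1, -0.66 for SULT2A1 and 0.15 for ABCG2.

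**Figure D4:**
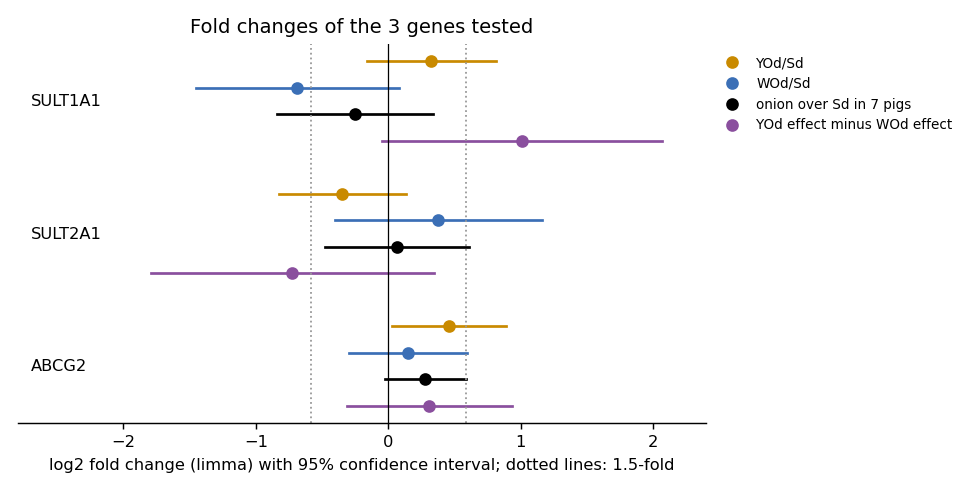
Log2 fold change in limma (points) with its 95% confidence interval (lines) for SULT1A1, SULT2A1 and ABCG2 in 4 comparisons. The interval excludes 0 for ABCG2 in YOd/Sd only, from 0.03 to 0.89, and the widest intervals are those of the difference between the onions for SULT1A1 and SULT2A1.

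The SD of the within-pig ratio was 0.88 for SULT1A1 and 0.80 for SULT2A1, against a median of 0.33 over all genes tested. These lie at the percentiles 95.2 and 93.8 of all genes. For ABCG2 the SD was 0.38, at percentile 60.4. Between the 7 Sd segments the SD was 0.60 for SULT1A1, 0.86 for SULT2A1 and 0.29 for ABCG2, with a median of 0.39 over all genes. So SULT1A1 and SULT2A1 were among the more variable genes between Sd segments, at percentiles 79.0 and 92.3. Within pigs their largest changes were those of pig 6, at -1.98 and 1.69. Their median absolute ratios, 0.33 and 0.30, lay only at percentiles 73.6 and 66.2, beside 63.8 for ABCG2. The first ABCG2 probe was less variable than most genes between Sd segments. Its other probes were not, with SDs of 0.45, 0.39 and 0.54 there and of 0.51, 0.51 and 0.54 for the within-pig ratio.

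The pigs with both arrays on one slide gave similar directions. In pigs 1 and 4, with the slide as a block, the YOd/Sd log2 fold changes were 0.52 for SULT1A1, -0.55 for SULT2A1 and 0.58 for ABCG2, and each had a raw limma p below 0.05 with a change below 1.5-fold. These rest on 2 pigs. In the 5 pigs with both arrays on one slide the values were -0.24, 0.02 and 0.38.

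The other genes of flavonol conjugation and uptake were thinly covered, since 30 of the 123 genes listed were on the array under a RefSeq accession and 25 were tested for YOd/Sd. In YOd/Sd 2 of them rose and 1 fell, so that 3 of 25 passed the thresholds beside 4.63% of all genes, and their median log2 fold change was 0.07 beside 0.14 for all genes. In the 7 pigs 1 rose and 1 fell, so that 2 of 25 passed beside 1.22% of all genes. In WOd/Sd 0 of 25 passed, beside 1.18%, and in the difference between the onions 0 of 26, beside 3.64%. Of the 11 other cytosolic sulfotransferases listed, 0 were on the array under an accession of their own.

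Of the genes for sulfate uptake and PAPS, 2 of 17 were on the array. SLC26A3, an apical exchanger of chloride and bicarbonate that also carries sulfate, fell by 2.18 on the log2 scale with YOd (SE 0.71, adjusted p = 0.387 in limma). Its log2 ratios were -3.85, 0.31 and -3.004 in pigs 1, 2 and 4 and -2.49, -0.03, 0.92 and -1.43 in pigs 5, 6, 7 and 8. With both onions joined it fell by 1.37 (SE 0.53, raw limma p = 0.0276, exact sign-flip p = 0.109), and it was lower in 5 of 7 pigs. The call over the 7 pigs held in 12 of 19 alternative settings. Among others it was lost without pig 1, 4, 5 or 8, with values from -1.36 to -0.95. SLC26A6, a related anion exchanger, had a log2 fold change of -0.22 over the 7 pigs, and the enzymes that make PAPS were not analysed here.

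UGP2, which makes the UDP-glucose from which the donor of glucuronidation is formed, rose with YOd by 0.72 (SE 0.22, adjusted p = 0.387 in limma). It was higher with onion in 7 of 7 pigs, with log2 ratios of 0.79, 0.13 and 1.24 with YOd and 0.31, 0.47, 0.03 and 0.50 with WOd. The joined log2 fold change was 0.49, below the 1.5-fold threshold, with a raw limma p of 0.00646, an adjusted p of 0.630 and an exact sign-flip p of 0.0156, the smallest that 7 pigs allow. With the mean over the probes of UGP2 this fold change was 0.34. The 75th percentile used for scaling was 587 in the Sd and 557 in the WOd array of pig 7. The UGP2 ratio of 0.03 in this pig is smaller than that scaling step. The count of 7 of 7 pigs and the exact p therefore rest on the scaling. Of the 27 genes of glucuronidation and methylation, 5 were on the array and 4 were tested, and UGP2 alone passed the thresholds.

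SLC16A1, a transporter of lactate and other monocarboxylates, rose with YOd by 0.66 (SE 0.20, adjusted p = 0.387 in limma) and in the 7 pigs by 0.61 (SE 0.22, raw limma p = 0.0176, exact sign-flip p = 0.0469). It was higher in 6 of 7 pigs, with log2 ratios of 0.90, 0.11 and 0.98 with YOd and 0.99, 0.75, -0.73 and 1.25 with WOd. This call over the 7 pigs was lost without pig 1, 4, 5, 6 or 8, with values from 0.50 to 0.58. It was also lost with the mean over the probes of the gene, at 0.55, and with normexp background correction, at 0.47. The YOd/Sd calls of SLC26A3, UGP2 and SLC16A1, at raw limma p-values of 0.0197, 0.0165 and 0.0154 beside exact p-values of 0.50, 0.25 and 0.25, were each lost without pig 1 or pig 4. Without pig 1 their values were -1.35, 0.68 and 0.54, and without pig 4 they were -1.77, 0.46 and 0.51. Without scaling between arrays the YOd/Sd values of UGP2 and SLC16A1 were 0.41 and 0.35, and SLC16A1 was at 0.46 over the 7 pigs, and these calls were lost. With quantile normalization the YOd/Sd call of SLC26A3 was lost at -2.13. In all, the YOd/Sd calls of SLC26A3, UGP2 and SLC16A1 held in 9, 8 and 7 of 15 alternative settings. The glucose transporter SLC2A2 had the lowest value of the 5 genes of deglycosylation and uptake tested, a log2 fold change of -0.17 over the 7 pigs.

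Of the markers of the position along the small intestine, 3 also passed the thresholds for YOd/Sd. SLC10A2, the bile acid transporter of the ileum, was above the floor on 12 of 14 arrays and had log2 ratios of -1.01, -0.0040 and -2.57 with YOd and -1.58, -0.51, 1.18 and -0.69 with WOd, so that pig 7 was the highest of the 7 for this gene and for SLC26A3. It fell by 1.19 with YOd (SE 0.43, adjusted p = 0.387 in limma), and this call held in 6 of 14 alternative settings. Among others it was lost without pig 1 or pig 4, at -1.29 and -0.51, and with quantile normalization, at -1.19. SLC46A1, the folate transporter of the proximal small intestine, had ratios of 1.60, -0.02 and 1.47 with YOd and 1.82, 1.05, -0.83 and 0.81 with WOd. It rose with YOd by 1.02 (SE 0.32, adjusted p = 0.387 in limma) and over the 7 pigs by 0.84 (SE 0.29, adjusted p = 0.630 in limma). Pig 7 was the lowest of the 7 for this gene and for SLC16A1. CCK, the hormone cholecystokinin of the proximal small intestine, rose with YOd by 0.92 (SE 0.27, adjusted p = 0.387 in limma). The YOd/Sd calls of SLC46A1 and CCK each held in 9 of 15 alternative settings. Among others they were lost without pig 1, at 0.73 and 0.60, and without pig 4, at 0.79 and 0.84. They were also lost without scaling between arrays, at 0.71 and 0.61. Over the 7 pigs the call of SLC46A1 held in 17 of 19 settings and was lost without pig 4, at 0.74, among others. Of 6 proximal markers 3 were on the array, and the third, CYBRD1, was at -0.02 for YOd/Sd. The summed level of the 3 was 19.0 to 44.8 in Sd, 32.4 to 117 in YOd and 17.4 to 71.8 in WOd segments, with log2 ratios of 1.42, -0.03 and 1.02 in pigs 1, 2 and 4 and 0.999, 0.74, -0.43 and 0.46 in pigs 5, 6, 7 and 8. The distal markers had summed ratios of -0.36, 0.18 and -0.55 with YOd and of -0.09, -2.17, 0.59 and -0.35 with WOd. The part of the position along the intestine in the values of SLC26A3, UGP2 and SLC16A1 was not tested.

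**Figure D5:**
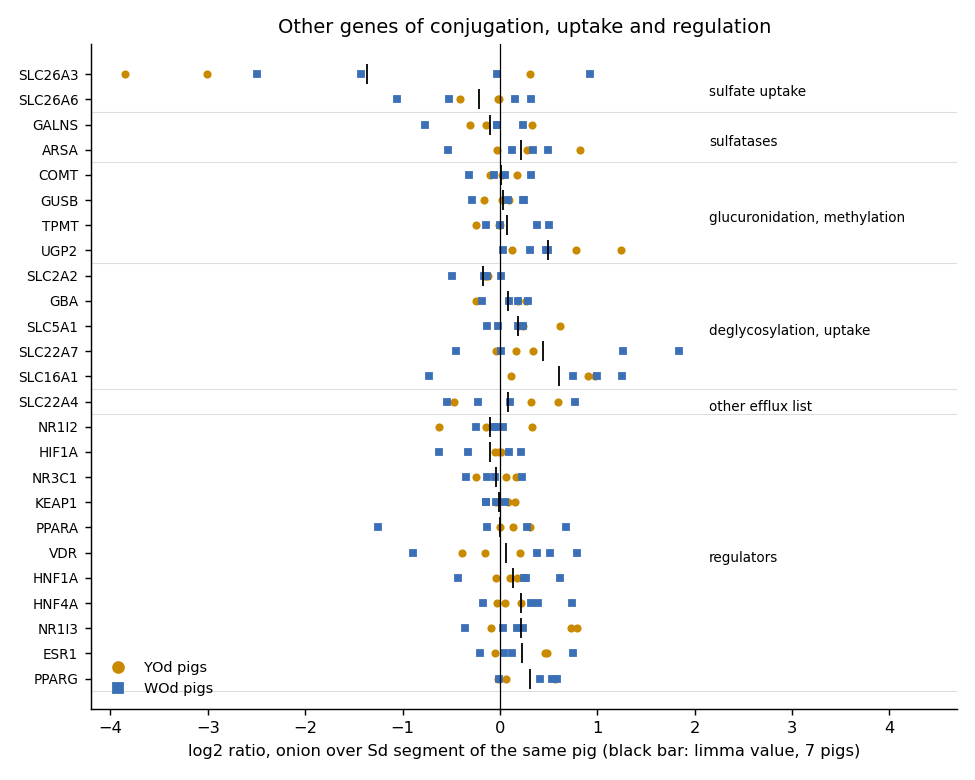
Log2 ratio of the onion over the Sd segment in each of 7 pigs (x axis) for the listed genes that were tested over the 7 pigs (y axis), grouped by role, with the limma value as a black bar. SLC26A3 spreads furthest, from -3.85 to 0.92, and all 7 points of UGP2 lie above 0.

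The remaining lists held no gene past the thresholds. Over the 7 pigs the sulfatases ARSA and GALNS had log2 fold changes of 0.21 and -0.10. SLC22A4, a carnitine and ergothioneine transporter, was the 1 gene of 21 listed under other efflux transporters on the array, at 0.08. Of 21 nuclear receptors and factors known to act on such genes, 13 were on the array and 11 were tested. The highest of these was PPARG at 0.31 (raw limma p = 0.0244, exact sign-flip p = 0.0625, below 1.5-fold), and the lowest was NR1I2, the pregnane X receptor, at -0.11.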

How the data were processed

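Agilent Feature Extraction gave, per the file headers, the processed signal intensity of 43803 spots on each of 14 arrays from 7 pigs. The authors also deposited log2 values, centred per probe, which served as an alternative. Outlier spots were left out, spots of a probe were averaged, each array was scaled to its 75th percentile, signals under the 40th percentile of all arrays were raised to it, and log2 was taken. Scaling ties each value to the rest of the array. The number of arrays limits the precision. RefSeq accessions named 6686 probes, with Sscrofa11.1 used for names only, and the study's own gene table named 0 further probes of these genes. Tests were limited to genes that exceeded the floor on as many arrays as the smaller group held.

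All named genes entered limma 3.58.1 (R 4.3.3), the pig being the block, and p-values were Benjamini-Hochberg adjusted. Both arrays of a number come from one animal, and their deviations from the group means correlated with r from 0.31 to 0.79. The fit was tested on simulated data. Python 3.11.15 served for exact tests and figures. Genes named were the 4 genes, listed genes past the thresholds or at a list's extremes, and the 3 most similar genes. The genes and lists were chosen with earlier results of these data known. One marker is not reported here and was left out of its list.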

Additional observations from a re-analysis of the deposited data

Results flagged for a closer look

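Values looked at again were an array far from the others of its group by Dixon's test, over 32 groups, and effects that ran opposite ways with the onions. By chance about 1 in 20 groups would pass Dixon's test. On the second SULT1A1 probe, the WOd over Sd log2 ratio of pig 6 was -2.14, and its gap to the next pig took 0.864 of the range of the 4 WOd pigs, above the critical value of 0.829. Among all 7 pigs the same ratio of -2.14 had a gap of 0.590 of the range, above 0.568. On the same probe the effect of YOd minus that of WOd was 1.12, with every YOd pig higher and every WOd pig lower than Sd. The adjusted limma p of this difference was 0.744 and the exact permutation p was 0.0571.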

How the results depend on the processing

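Of 207 recalculations of the 12 tested values of SULT1A1, SULT2A1 and ABCG2, 199 kept their direction and their side of the thresholds. Many of these could not change direction. Changes to the floor, the filter, the features fitted or the pig block left the log2 fold changes as they were and altered only the p-values. The slide block repeats the fit without pig 2 for YOd/Sd and without pig 7 for WOd/Sd. The count is therefore not a measure of how firm the values are. Over the 7 pigs SULT2A1 reversed to -0.083 without scaling between arrays and to -0.0041 with the mean over its probes. Leaving out each pig in turn moved SULT2A1 between -0.20 and 0.22 and SULT1A1 between -0.44 and 0.035 over the 7 pigs, and reversed both without pig 6. For WOd/Sd it moved ABCG2 between -0.010 and 0.26 and SULT2A1 between -0.059 and 0.62, and reversed both without pig 6. The SULT1A1 difference between the onions passed the thresholds at 1.01 when fitted on genes well above background on every array, and at 1.26 without pig 8, where leaving out each pig gave 0.58 to 1.26. SLC22A4 reversed to -0.071 without scaling, and leaving out each pig moved it between -0.036 and 0.18 and GALNS between -0.17 and 0.011. With the authors' values SLC26A3 (-2.24), UGP2 (0.65) and SLC16A1 (0.60) did not pass for YOd/Sd, nor did they without a filter on dim genes. The cause was not tested.

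Counts of genes past the thresholds moved more, in the order YOd/Sd, WOd/Sd, 7 pigs and difference (114, 29, 30 and 93). Without the block for the pig, which pairs the arrays, they were 20, 10, 11 and 5, and the paired fit changed no call of the 3 genes. With a block for the slide, in which pigs 2 and 7 drop out, they were 326, 91, 80 and 197. In this setting 113, 2, 14 and 0 genes had an adjusted limma p below 0.05. Leaving out pig 2 gave the same 113 for YOd/Sd, and leaving out pig 7 the same 2 for WOd/Sd. With every probe as a feature they were 1298, 339, 223 and 1601, where more features were tested, and with the authors' values 10, 12, 16 and 38. Normexp gave 65 for YOd/Sd, 12 for WOd/Sd and 49 for the difference. Without a filter on dim genes these were 20, 17 and 47. The floor at the 20th percentile gave 54 for WOd/Sd and 48 for the 7 pigs. Quantile normalization gave 63 for YOd/Sd, and no scaling 16 for the 7 pigs. Leaving out each pig gave 50 to 326, 42 to 91, 17 to 50 and 45 to 163, the extremes being without pigs 1 and 2, 6 and 7, 1 and 7, and 4 and 2.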
